A study of Homo sapiens with 8 samples.

Results

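J-domain proteins are the co-chaperones that bring client proteins to HSP70 and switch on its ATPase. They were taken here as every gene symbol that starts with DNAJA, DNAJB or DNAJC followed by a number, which gave 45 genes of the 24721 symbols in the deposited table. Class A held 4 of them, class B held 13 and class C held 28. The 45 genes had 46 gene models, because DNAJB6 had 2, and the model with the highest mean rank stood for the gene.

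The study mapped m6A (N6-methyladenosine, an adenosine methyl mark found inside many mRNAs) in human cells labelled HepG2, a line the labels call hepatocarcinoma. The UV group received 0.04 J per square centimetre and recovered for 4 h, and the heat shock group was held at 43 degrees for 30 min. The wording of the protocol leaves it unsettled whether the recovery also applied to heat shock. The HGF group was kept overnight in 10 ng/ml of hepatocyte growth factor (HGF/SF, the ligand of the MET receptor), and the IFNg group overnight in 200 ng/ml of interferon gamma. Each group held 1 library precipitated with an anti-m6A antibody (IP) and 1 input library, 8 libraries in all. There was no replicate and no untreated sample here, so every comparison below is between single treatments and carries no test.

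Expression was deposited only as a quantile rank of each gene model within its treatment. It is written here as a percentile from 0 to 100, and a difference between treatments is given in points of that scale. The files hold no read counts, so read depth cannot be stated and differences cannot be turned into folds. Many models shared the lowest rank of their treatment, a floor that lay at 45.5 in the UV group, 32.7 in heat shock, 20.4 in HGF and 18.4 in IFNg. In the same order 9, 6, 2 and 1 of the 45 genes stood at the floor. Differences were counted with values below 45.5 raised to 45.5, and only in genes that reached percentile 60 in some treatment. That filter kept 35 of the 45 genes and 11174 coding symbols. In bulk RNA, fewer cells that express a gene and less RNA per cell cannot be told apart.

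Markers of hepatocytes ranked low in these libraries. Of 14 hepatocyte markers, 12, 8, 5 and 5 stood at the floor of their own treatment after UV, heat shock, HGF and IFNg, and 12, 11, 14 and 13 stood at or under percentile 45.5. HNF4A, a transcription factor of hepatocytes, reached 56.9 after IFNg. ALB, the gene of serum albumin, stood at 45.5, 57.6, 24.9 and 22.3, and only TTR passed the filter, at 76.1, 71.5, 43.0 and 42.0. Of 4 fibroblast markers, the matrix genes LUM (92.9, 95.5, 90.2 and 81.1), COL1A1 (64.7, 60.7, 83.6 and 80.9) and COL3A1 (66.1, 61.0, 58.2 and 65.4) passed the filter, and COL1A2 stood at or near the floor (45.5, 33.2, 20.6 and 18.5). The cells are called here only by their label.

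As background, HSP70 binds exposed hydrophobic stretches of a protein when it holds ADP and releases them when it holds ATP. The J domain triggers the hydrolysis that traps the client, and a nucleotide exchange factor then resets the cycle. Class A proteins resemble bacterial DnaJ, with a glycine- and phenylalanine-rich stretch and a zinc finger, and class B proteins lack the zinc finger. Class C proteins share only the J domain, and many recruit HSP70 to one place, such as an organelle membrane, the ribosome or a clathrin coat. Some cytosolic members belong to the heat shock response, driven by the factor HSF1, and some members of the endoplasmic reticulum (ER) to the unfolded protein response.

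The sequence through which HSF1 acts is the heat shock element, a run of alternating GAA and TTC units. The 250 bases before the start of each gene were searched in RefSeq's promoter table (build GRCh38.p14), which held 40 of the 45 genes. DNAJB3, DNAJC1, DNAJC5B, DNAJC22 and DNAJC24 did not match an entry. A pair of units, GAANNTTC or TTCNNGAA, each of which reads the same on both strands, was found in 7 of the 40 genes, and in 14.0% of all 27305 symbols. The 7 were DNAJA1, DNAJA4, DNAJB1, DNAJB4, DNAJB6, DNAJB7 and DNAJC15. A longer run of 3 units, GAANNTTCNNGAA or its reverse complement TTCNNGAANNTTC, holds overlapping pairs and was found in 1 gene, DNAJB6, and in 0.557% of symbols. The ER stress element, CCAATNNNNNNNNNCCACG or its reverse complement, was found in 0 of the 40 genes and in 0.0916% of symbols.

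The 140 bases before the start are shown for the 4 genes whose pairs lie closest to it, because their ranks after heat shock are described below. Sequences run 5′ to 3′ along the gene, and capitals mark the GAA and TTC units. DNAJB1 lies on the minus strand (chr19:14518398-14518537), and DNAJA4 (chr15:78264422-78264561), DNAJB4 (chr1:78004799-78004938) and DNAJB6 (chr7:157336864-157337003) lie on the plus strand.
DNAJB1: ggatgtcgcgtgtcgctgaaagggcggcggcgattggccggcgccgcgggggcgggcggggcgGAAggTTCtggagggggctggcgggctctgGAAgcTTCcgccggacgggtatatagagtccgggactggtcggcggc
DNAJA4: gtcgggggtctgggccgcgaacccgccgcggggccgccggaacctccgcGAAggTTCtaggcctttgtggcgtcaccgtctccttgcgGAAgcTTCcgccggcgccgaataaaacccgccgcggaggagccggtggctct
DNAJB4: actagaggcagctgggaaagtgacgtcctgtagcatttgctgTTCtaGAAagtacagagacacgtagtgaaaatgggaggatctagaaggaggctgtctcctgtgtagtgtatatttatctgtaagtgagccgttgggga
DNAJB6: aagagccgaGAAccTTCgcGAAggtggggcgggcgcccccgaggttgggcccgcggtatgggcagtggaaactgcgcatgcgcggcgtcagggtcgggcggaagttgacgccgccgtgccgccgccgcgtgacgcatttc
The pairs began 77 and 47 bases before the start in DNAJB1, 91 and 52 bases before it in DNAJA4, and 98 bases before it in DNAJB4. In DNAJB6 the overlapping pairs began at 131 and 126 bases and formed the run of 3 units. A match of letters is a description and not a binding site.

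J-domain genes spanned nearly the whole scale of expression. The median over the 45 genes was 77.2 and 78.9 in the UV and heat shock groups, and 71.3 and 72.6 in the HGF and IFNg groups. Over all 19510 coding symbols it was 59.2, 58.5, 58.8 and 58.9 in the same order. The mean over the 4 treatments was 90 or more in 11 genes, beside 2109 of the 19510 coding symbols. Of the 11, 3 were in class A, 2 in class B and 6 in class C. The mean was under 60 in 12 genes, 5 in class B and 7 in class C, beside 10020 of the coding symbols. The median of this mean was 93.0 in class A (82.1 to 99.4), 64.1 in class B (34.9 to 95.0) and 75.3 in class C (32.8 to 98.5), so the classes overlap. Classes B and C hold genes whose expression is known mainly from testis, brain or cilia, and with the filter applied their medians were 79.2 over 8 genes and 80.6 over 23.

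**Figure D1:**
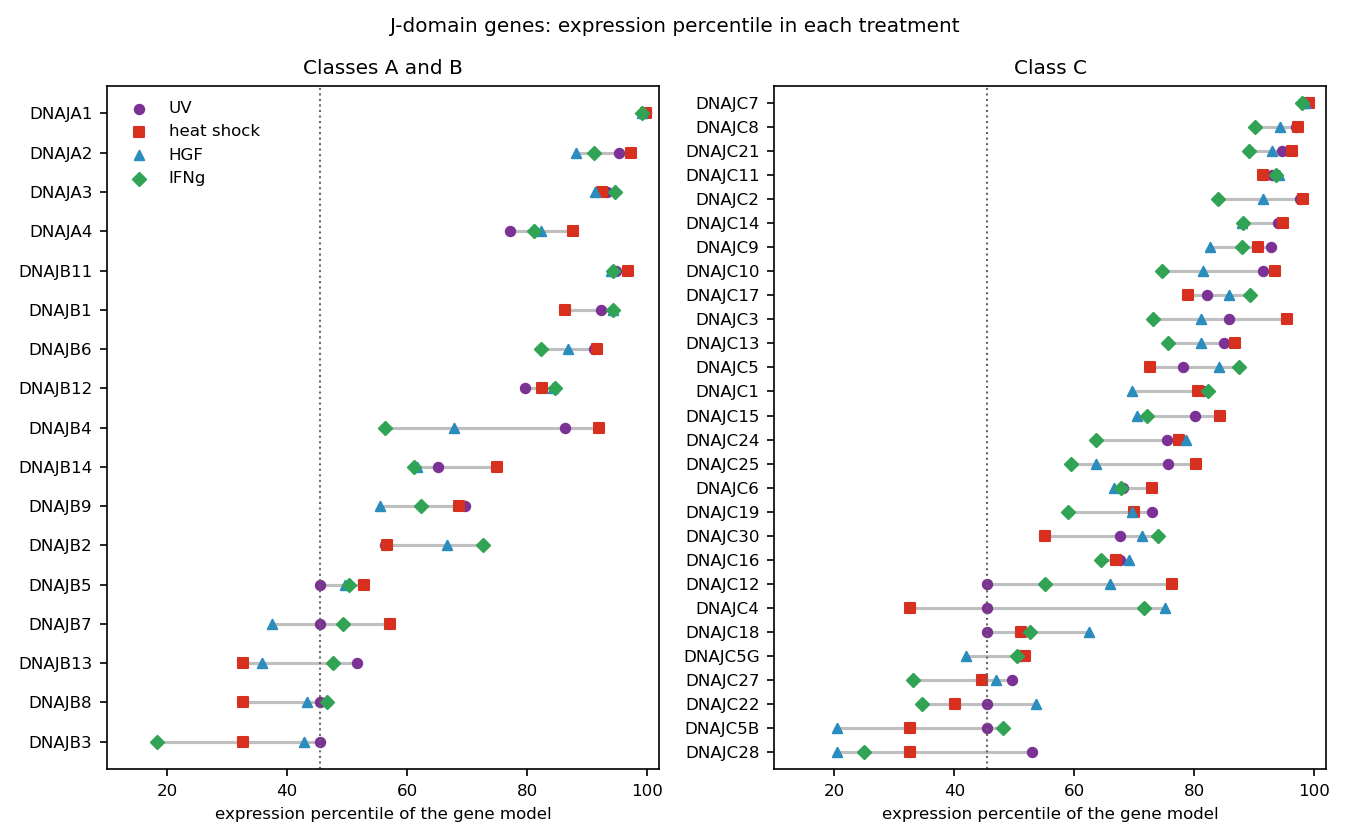
Expression percentile (0 to 100) of the 45 J-domain genes in each treatment, ordered by mean within classes A and B (left) and class C (right); each symbol is 1 treatment, the grey bar joins the lowest and highest, and the dotted line marks the floor of UV at 45.5. Genes near 100 have short bars, while DNAJB4, DNAJC4 and DNAJC12 have the longest bars among genes past the filter.

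Class A comprises the DnaJ-like proteins of the cytosol and 1 of the mitochondrial matrix. DNAJA1, a cytosolic partner of HSPA8, had the highest mean of the whole family and stood at 99.8, 99.8, 99.1 and 99.1 after UV, heat shock, HGF and IFNg, the order kept below. All 4 values lay within 0.745 points. DNAJA2, a close cytosolic relative, stood at 95.3, 97.3, 88.1 and 91.2, with both stress treatments above both ligand treatments. DNAJA3, which serves mitochondrial HSP70, stood at 93.3, 92.5, 91.4 and 94.6. DNAJA4 was the lowest of the class at 77.2, 87.7, 82.4 and 81.1. It was highest after heat shock, 5.36 points above HGF, which is under the 10 points set for a difference.

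The cytosolic and nuclear members of class B include the best known heat shock gene of the family. DNAJB1, also called HSP40, stood at 92.4, 86.4, 94.4 and 94.4, and heat shock was the lowest of the 4, by 6.01 points. DNAJB4 stood at 86.4, 92.0, 67.8 and 56.4, and so was highest after heat shock and lowest after IFNg, a range of 35.6 points. On the coordinates as deposited, whose build is not given in the sources used here, DNAJB1 (model iduc002myz.1) lies on the minus strand of chromosome 19 from 14486582 to 14490201 and DNAJB4 (iduc001dij.1) on the plus strand of chromosome 1 from 78243224 to 78255583. DNAJB6, which suppresses the aggregation of polyglutamine proteins, stood at 91.2, 91.7, 86.8 and 82.4. DNAJB1 and DNAJB4 thus lay at opposite ends of their own values after heat shock, and both have a GAA and TTC pair near the start. Heat shock gave the lowest value, as in DNAJB1, in 28.5% of coding symbols. Of the other genes with a pair, DNAJA4, DNAJB6 and DNAJC15 were highest after heat shock, as were 33.2% of coding symbols. DNAJA1 stood at 99.8 after both UV and heat shock, and DNAJB7 did not pass the filter. A link between the pairs and the ranks was not tested. DNAJB2, a neuron-enriched protein that directs clients to the proteasome, stood at 56.3, 56.6, 66.6 and 72.6, lower after both stresses than after both ligands. DNAJB5 did not pass the filter, at 45.5, 52.9, 49.7 and 50.3.

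The ER members cover folding in the lumen and quality control at the membrane. DNAJB11 (ERdj3), a secreted and lumenal partner of the ER chaperone HSPA5, varied least of them, at 94.9, 96.9, 94.0 and 94.3. DNAJB9 (ERdj4), a repressor of the stress sensor IRE1, stood at 69.7, 68.7, 55.5 and 62.4. DNAJC3, an inhibitor of the kinases PERK and PKR, stood at 85.8, 95.4, 81.2 and 73.2, with heat shock 9.61 points above UV. Each of these genes was highest in a stress treatment.

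DNAJC10 (ERdj5), a reductase of disulfide bonds, stood at 91.5, 93.5, 81.5 and 74.7. DNAJC14, an ER membrane protein, stood at 94.0, 94.7, 88.0 and 88.2. DNAJC1, which binds ribosomes at the ER, differed in shape from these, at 81.5, 80.6, 69.6 and 82.3. Over the ER list of 12 genes, 11 passed the filter, 7 of these had both stress values above both ligand values (37.7% of coding symbols) and 2 had them below (32.1%), and 1 met the 10 points (DNAJC1). The median difference between the stress and ligand treatments was 6.24 points over these 11 genes, against 0.735 over the 11174 coding symbols. Their median GC content was 41.4%, against 48.2% in coding symbols, and its part in the difference was not tested.

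Mitochondrial members of class C were mixed. DNAJC11, a protein associated with the cristae-organising complex, stood at 92.9, 91.4, 94.1 and 93.6. DNAJC15, which belongs to the inner membrane import motor, stood at 80.1, 84.3, 70.4 and 72.1. DNAJC19 (TIM14) of the same motor stood at 73.0, 70.0, 69.7 and 58.9. Both motor genes were higher after the stresses than after the ligands. DNAJC30 stood at 67.7, 55.1, 71.3 and 73.9 and was lowest after heat shock. Of 6 mitochondrial genes past the filter, with DNAJA3 included, 2 lay higher after both stresses (37.7% of coding symbols) and 3 lower (32.1%). The median difference over the 6 genes was -0.931 points, against 0.735 over the coding symbols. Their median GC content was 53.2%, against 48.2% in coding symbols, and its part in the difference was not tested.

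Other class C members are known from the cytosol and nucleus. DNAJC7, which binds both HSP70 and HSP90, had the second highest mean, at 98.6, 99.1, 98.4 and 98.0. DNAJC8, a protein of the spliceosome, stood at 97.0, 97.3, 94.2 and 90.1. DNAJC21, a ribosome assembly factor, stood at 94.6, 96.3, 93.0 and 89.2. With DNAJA1 and DNAJB11 these were the 5 highest genes of the family. DNAJC2, which acts with HSPA14 on the ribosome, stood at 97.6, 98.1, 91.4 and 84.0. It was the exception among the 11 genes with a mean of 90 or more, since the other 10 varied by less than 10 points. Such ranges were not counted over coding symbols with a mean of 90 or more. The small ranges are therefore not shown to be particular to the family. DNAJC9, a histone chaperone, stood at 92.8, 90.6, 82.6 and 87.9.

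The remaining class C genes named here act mainly on vesicles or in single pathways. DNAJC13, an endosomal protein, stood at 84.9, 86.8, 81.2 and 75.7. DNAJC6 (auxilin), which helps to uncoat clathrin vesicles, stood at 68.2, 72.9, 66.7 and 67.8. DNAJC5, the cysteine string protein of secretory vesicles, had the other order, at 78.1, 72.6, 84.1 and 87.5. The first 2 genes were highest after heat shock, and DNAJC5 was lowest there. DNAJC24, an enzyme cofactor of diphthamide synthesis, stood at 75.4, 77.5, 78.6 and 63.7. DNAJC12, a co-chaperone of the aromatic amino acid hydroxylases, stood at 45.5, 76.3, 65.9 and 55.2, with the UV value at the floor. DNAJC16, an ER protein linked to autophagosomes, varied little, at 67.7, 66.9, 69.1 and 64.4.

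Of the other genes past the filter, DNAJB12, DNAJB14, DNAJC17 and DNAJC25 had means from 65.8 to 84.0, and DNAJC4 and DNAJC18 had means of 56.3 and 52.9. DNAJC4 ranged over 42.5 points as deposited, the widest of the family, because it stood at the floor after UV and heat shock and at 75.2 and 71.6 after HGF and IFNg. The 10 genes that did not pass were DNAJB3, DNAJB5, DNAJB7, DNAJB8, DNAJB13, DNAJC5B, DNAJC5G, DNAJC22, DNAJC27 and DNAJC28. Their means ran from 32.8 to 49.6, and no treatment brought any of them to percentile 60. Of the 8 genes that the list used here assigned to testis, brain or cilia, DNAJC6 and DNAJC12 passed. That list was not checked against tissue data.

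Differences of at least 10 points from all 3 other treatments were uncommon. After UV, 0 of the 35 genes lay that far above the others and 0 below, where 1.32% and 1.59% of the coding symbols did. After heat shock DNAJC12 lay above (2.03% of coding symbols) and DNAJC30 below (4.11%). After HGF none lay above (1.19%) and DNAJC1 lay below (1.28%), by 11.0 points. After IFNg none lay above (2.90%), and DNAJB4, DNAJC19 and DNAJC24 lay below (2.89%), by 11.4, 10.8 and 11.7 points. Each of these counts rests on 3 genes or fewer, and none of the 6 differences reached 20 points. When each rank was taken relative to coding genes of like GC content, 5 of the 6 differences no longer reached 10 points. That of DNAJC1 did, at -10.5 points after HGF against 1.81, 1.43 and 0.444 after UV, heat shock and IFNg. On this scale DNAJC12 lay lower after UV instead, at -35.8 against -7.27, -8.27 and -15.9 after heat shock, HGF and IFNg. Its UV value was at the floor. DNAJC24 lay higher after HGF, at 5.81 against -4.64, -5.57 and -5.65 after UV, heat shock and IFNg.

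Small differences pointed more often toward heat shock. Heat shock gave the highest of the 4 values in 19 of the 35 genes, against 33.2% of coding symbols. UV was highest in 3 (19.9%), HGF in 6 (20.9%) and IFNg in 7 (25.8%). IFNg gave the lowest value in 14 (31.4%), HGF in 10 (20.1%), UV in 5 (15.7%) and heat shock in 5 (28.5%). Relative to coding genes of like GC content, heat shock was highest in 10 of the 35 genes, or 28.6%, beside 27.8% of coding symbols. Genes whose 4 values lay within 10 points numbered 14 of 35, against 4424 of the 11174 coding symbols.

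UV and heat shock were then set as a pair against HGF and IFNg. Both stress values lay above both ligand values in 20 of the 35 genes (37.7% of coding symbols) and below them in 9 (32.1%). The widest gap upward was that of DNAJB4, at 27.1 points between the means of the pairs, followed by DNAJC25 at 16.5, DNAJC10 at 14.4 and DNAJC3 at 13.4. DNAJC4, at -27.9, and DNAJB2, at -13.1, were the widest downward. The median over the 35 genes was 4.38 points, and 0.735 over the coding symbols.

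GC content moved with this difference. Across the 35 genes the Spearman correlation of the difference with the GC content of the longest transcript was -0.724, and across 10695 coding symbols with a GC value it was -0.735. These are descriptions across genes that share the same libraries. The 20 genes with higher stress values had a median GC of 41.3%, from 33.1 to 55.0, and the 9 with lower stress values had 56.0%, from 45.8 to 59.1. Relative to coding genes of like GC, the median difference was 0.0714 points, 10 genes had both stress values above both ligand values and 8 had them below, beside 29.7% and 25.7% of 10695 coding symbols. DNAJB4 kept a difference of 15.1 points and DNAJB6 had 14.8, while DNAJC4 kept -18.6 and DNAJC18 had -13.1. DNAJC4 stood at the floor after UV and heat shock, and DNAJC18 after UV. The part of GC content in the expression differences was not tested.

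**Figure D2:**
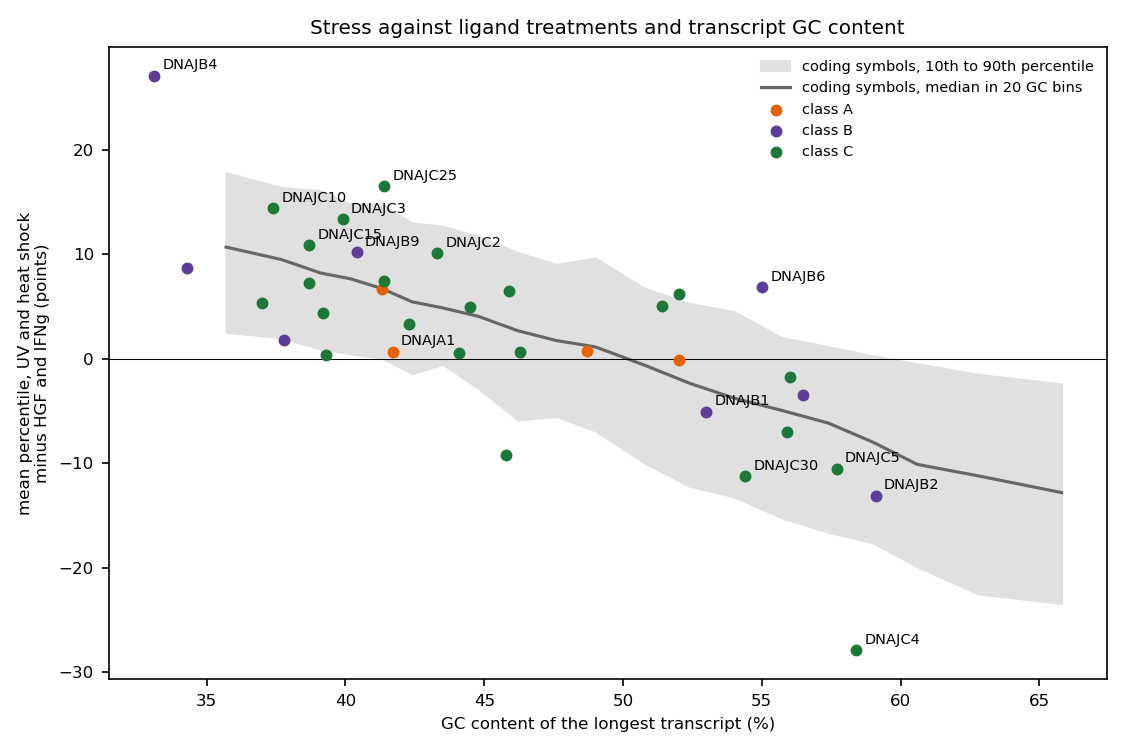
Difference in mean percentile between the stress treatments (UV and heat shock) and the ligand treatments (HGF and IFNg) in points, against GC content of the longest transcript in percent, for the 35 J-domain genes past the filter (1 point each, coloured by class). The line is the median and the grey band the 10th to 90th percentile of coding symbols in 20 GC bins; members slope downward with the coding symbols, from 27.1 points in DNAJB4 to -27.9 in DNAJC4.

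The m6A data list peaks of each gene model by transcript position, exon, segment and an enrichment score of the authors. The lowest listed score was 2, and the sources used here do not give its formula. The J-domain genes carried 80 listed peaks, with 30 in the UV group, 23 in heat shock, 15 in HGF and 12 in IFNg. All gene models together carried 13307, 9803, 9111 and 5280, so the family followed the order of the whole table. Numbers of peaks can move with depth, which is unknown, and a gene without a listed peak is not shown to be unmethylated.

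For UV, heat shock, HGF and IFNg, a peak was listed in 20, 17, 13 and 10 J-domain genes, all of them among the 35 past the filter. The shares among coding symbols were 59.2%, 48.0%, 46.0% and 30.6%. The HGF count was the one furthest from its background, and it included 8 of the 11 genes with a mean percentile of 90 or more (51.4% of coding symbols in that band) but 3 of the 12 genes between 75 and 90 (55.2%). In the same band from 75 to 90, 8 of 12 had one in the UV group (67.4%), 7 in heat shock (56.2%) and 2 in IFNg (40.6%). In the top band 9, 7, 8 and 6 of the 11 genes had a peak (72.3%, 61.6%, 51.4% and 39.5% of coding symbols). Between 60 and 75 it was 3, 3, 2 and 2 of 10 genes (57.8%, 45.5%, 45.7% and 25.5%). Below 60, 0 of 12 genes had a peak in any treatment, where 6.94%, 4.00%, 4.56% and 1.40% of coding symbols had one.

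A peak in some treatment was listed in 21 of the 35 genes past the filter, beside 65.2% of coding symbols. By class these were 4 of 4 genes in class A, 6 of 8 in class B and 11 of 23 in class C. In the order UV, heat shock, HGF and IFNg the counts were 4, 3, 3 and 2 in class A, 6, 6, 4 and 3 in class B, and 10, 8, 6 and 5 in class C. Class A carried 14 of the 80 peaks, class B 27 and class C 39. DNAJC2 was the 1 gene with a mean of 90 or more and no listed peak. DNAJC7, with the second highest mean rank, had peaks only after IFNg, at 950 and 1001 nt with scores of 2.02 and 2.03, next to the lowest score listed. By location, among genes past the filter, 7 of 11 ER genes, 6 of 7 cytosolic and nuclear genes of classes A and B, and 3 of 6 mitochondrial genes had a peak.

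**Figure D3:**
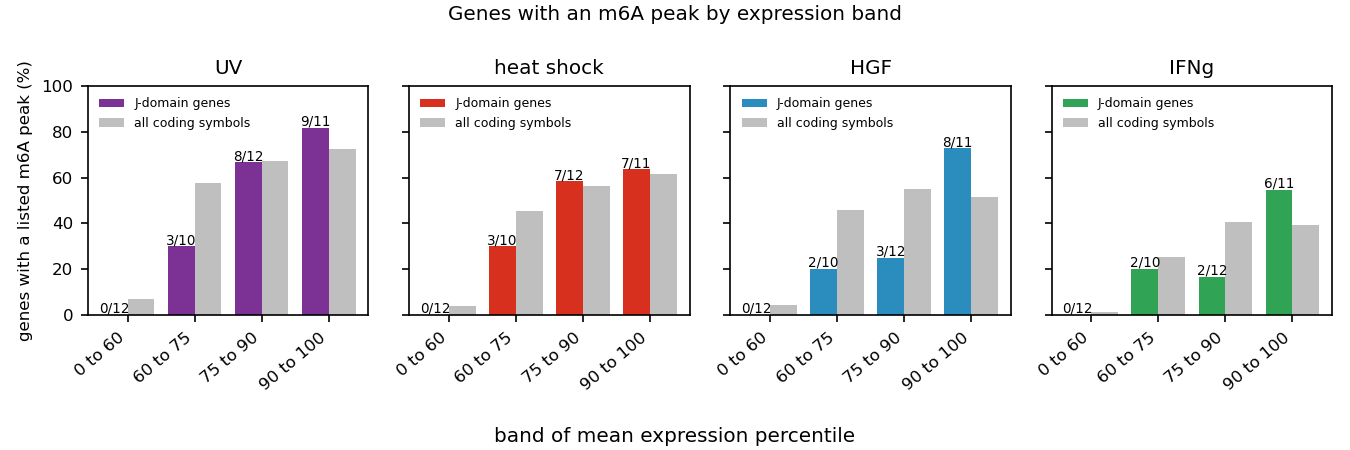
Share of genes with at least 1 listed m6A peak (percent, axis from 0) by band of mean expression percentile, for J-domain genes (coloured bars, with counts) and all coding symbols (grey), 1 panel per treatment. After HGF the members fall from 8 of 11 in the top band to 3 of 12 in the next, while coding symbols stay at 51.4% and 55.2%. After IFNg they also fall, from 6 of 11 to 2 of 12, beside 39.5% and 40.6% of coding symbols.

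A peak was listed in all 4 treatments for 8 genes, DNAJA1, DNAJA3, DNAJB1, DNAJB9, DNAJC10, DNAJC11, DNAJC14 and DNAJC16, where 24.6% of coding symbols had one. When peaks of a gene within 100 nt of each other were joined into 1 site, the family had 36 sites, of which 12 were listed in 1 treatment, 12 in 2, 5 in 3 and 7 in 4. These are 33.3%, 33.3%, 13.9% and 19.4%, beside 40.3%, 25.9%, 17.4% and 16.5% of the 17764 sites of all gene models. The commonest pattern was UV with heat shock and neither ligand, at 11 sites, followed by all 4 treatments at 7 and UV alone at 6. No site was listed after heat shock without UV. These patterns were not counted over all gene models, so they are not shown to be particular to the family. UV and heat shock also had the most peaks in the whole table, at 13307 and 9803. DNAJC11 had a peak in every treatment but no site in all 4, since its HGF peak lay at 2592 nt and the others between 1896 and 1919 nt.

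**Figure D4:**
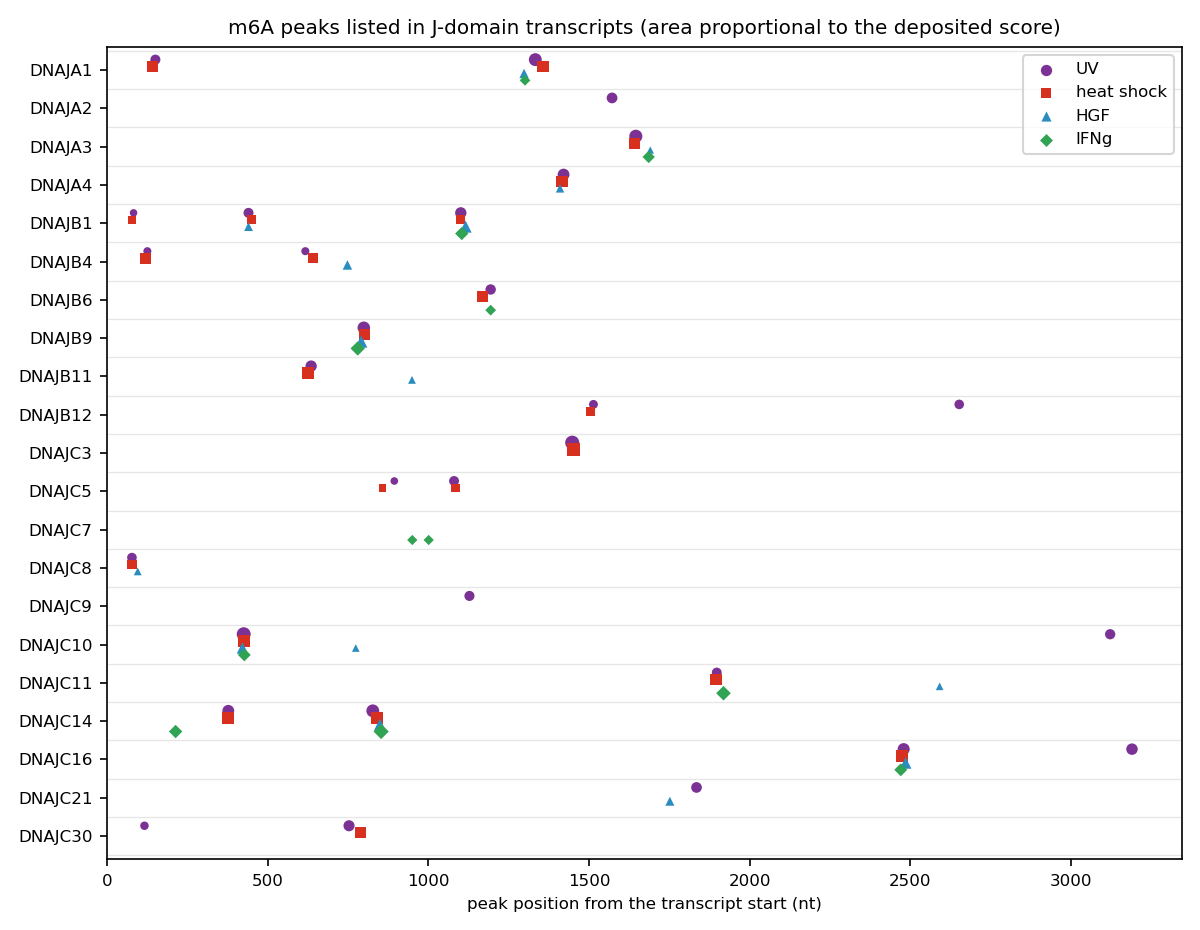
Position of each listed m6A peak along the transcript (nt from the transcript start) in the 21 J-domain genes with any peak; each symbol is 1 peak in 1 treatment, offset downward in the order UV, heat shock, HGF and IFNg, with area proportional to the deposited score. Peaks of different treatments stack at shared sites, as in DNAJB9 and DNAJC16, and peaks within 200 nt of the start are from UV and heat shock, apart from 1 HGF peak in DNAJC8.

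Peaks around the stop codon were the largest class of the family. They made up 34 of the 80 peaks, beside 28.0% of the 36551 annotated peaks of all gene models, and coding sequence held 21, beside 42.0%. The 3′ UTR held 13, the transcript start 10 and the 5′ UTR 2, beside 20.8%, 6.69% and 2.40%. Several peaks can belong to 1 gene and 1 site, so these counts are not independent. In the treatments in order, stop-codon peaks numbered 12 of 30, 11 of 23, 6 of 15 and 5 of 12. The exon holding a site had a median length of 1416 nt, beside 1404 nt over all sites, and was 400 nt or longer at 26 of 36 sites (72.2%), beside 83.9% of all sites.

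The stop-codon sites included most of those shared by all treatments. DNAJB9 had a site at 780 to 801 nt in exon 3 of 1952 nt, with scores of 6.03, 4.39, 5.80 and 3.98 in the usual order of treatments. DNAJC16 had one at 2471 to 2486 nt in exon 15 of 3956 nt, with scores of 5.62, 5.52, 5.19 and 3.23. At both sites the 4 treatments named nearly the same position. DNAJB1 had a site at 1100 to 1116 nt with scores of 4.94, 3.45, 5.53 and 3.40. DNAJA1 had one at 1298 to 1357 nt in exon 9 of 380 nt with scores of 6.39, 4.95, 3.40 and 2.21. DNAJA3 had one at 1642 to 1691 nt that spans the labels of stop codon and 3′ UTR, with scores of 6.61, 4.41, 2.05 and 2.96.

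The other sites shared by all 4 treatments lay in coding sequence of ER genes. DNAJC14 had one at 827 to 853 nt in an exon of 1463 nt, with scores of 6.36, 5.33, 5.40 and 4.45. DNAJC10 had one at 421 to 427 nt in exon 3 of 350 nt, with scores of 7.49, 5.36, 4.98 and 3.17. The 4 positions of DNAJC10 were the closest together of any such site in the family. DNAJC3 carried the highest score of the family within UV, 7.66, and within heat shock, 6.87, at 1448 to 1452 nt in an exon of 158 nt, and no peak after HGF or IFNg.

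Transcript-start peaks were listed in 5 genes of the family. They made up 5 of 30 UV peaks, 4 of 23 heat shock peaks, 1 of 15 HGF peaks and 0 of 12 IFNg peaks, beside 9.49%, 8.47%, 3.85% and 1.20% of all annotated peaks. DNAJA1 had one at 141 to 150 nt with scores of 3.88 after UV and 4.27 after heat shock. DNAJB1 had one at 77 to 82 nt with scores of 2.17 and 2.45, and DNAJB4 one at 119 to 125 nt with scores of 2.47 and 4.75. Each of these start sites was listed after both stresses and after neither ligand. DNAJC8 had a start site at 77 to 95 nt after UV, heat shock and HGF, and DNAJC30 one at 116 nt after UV alone. DNAJB11 had instead a 5′ UTR site at 626 to 635 nt after UV and heat shock, with scores of 4.93 and 5.14.

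DNAJB1 and DNAJB4, with 3 sites each, had the most in class B, DNAJA1 with 2 the most in class A, and DNAJC10 and DNAJC14 with 3 each the most in class C. The coding-sequence site of DNAJB1 at 440 to 448 nt was listed after UV, heat shock and HGF with scores of 3.85, 3.17 and 2.96. DNAJB4 had a coding-sequence site at 617 to 641 nt with scores of 2.51 after UV and 4.20 after heat shock, and an HGF peak at 748 nt with a score of 3.47. No peak of DNAJB4 was listed after IFNg, where its rank was also lowest. DNAJC14 also had a site at 377 nt after UV and heat shock, with scores of 5.41 and 5.46, and a peak at 213 nt after IFNg.

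The remaining peaks were single or shared by few treatments. DNAJA4 was listed at 1410 to 1421 nt after UV, heat shock and HGF, with scores of 5.38, 4.91 and 2.76, and DNAJA2 at 1572 nt after UV, with a score of 4.45. DNAJB6 was listed at 1169 to 1194 nt after UV, heat shock and IFNg, with scores of 4.15, 5.23 and 2.26. DNAJC5 had a pair of sites after UV and heat shock only, at 857 to 894 nt and at 1080 to 1084 nt. Of these genes, DNAJA4 and DNAJB6 alone also had a peak listed after a ligand. DNAJB12, DNAJC9 and DNAJC21 had 1 or 2 sites each, and DNAJC21 was listed after UV and HGF.

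Scores of different treatments were compared only as ranks among the 2925 sites listed in all 4 treatments, from 0 to 100, because their scale may differ between libraries. For UV, heat shock, HGF and IFNg, DNAJA3 ranked at 83.4, 50.9, 0.615 and 36.0, so UV lay more than 25 points above and HGF more than 25 points below all others. DNAJB1 ranked at 41.3, 23.3, 83.8 and 53.4, more than 25 points higher after HGF. DNAJC10 ranked at 94.9, 79.2, 72.5 and 44.2, more than 25 points lower after IFNg. Across all 2925 sites, 115 met this in the upward direction for UV, 93 for HGF, 108 in the downward direction for HGF and 231 for IFNg.

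DNAJA1 had the widest spread of the sites that did not meet that rule, with both ligand treatments under both stresses, at 79.5, 68.0, 26.3 and 6.94. DNAJB9 ranked at 71.1, 49.8, 88.6 and 71.6, and DNAJC16 at 82.9 in heat shock, 78.0 in HGF and 46.4 in IFNg, with UV between the last 2. DNAJC14 was the most even site, at 78.8, 78.5, 81.4 and 83.8. DNAJA3 and DNAJB1, whose sites stood apart after HGF in opposite directions, varied in expression by 3.19 and 8.09 points.

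**Figure D5:**
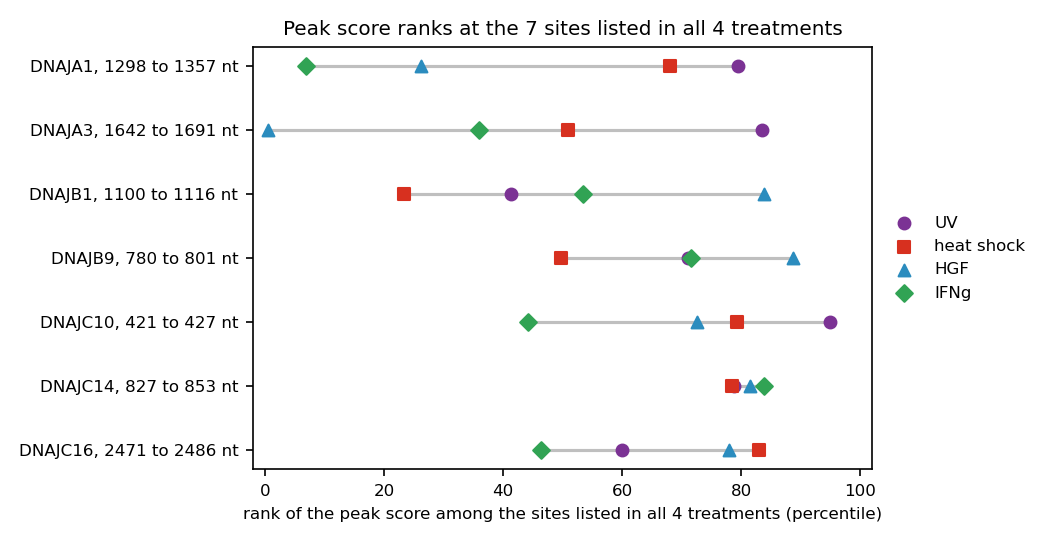
Rank of the peak score among the 2925 sites listed in all 4 treatments (percentile, 0 to 100) for the 7 such sites of J-domain genes; each symbol is 1 treatment and the grey bar joins the lowest and highest. DNAJC14 keeps its 4 ranks between 78.5 and 83.8, while DNAJA3 spans from 0.615 to 83.4.

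The partners of the J-domain proteins were read from lists of HSP70 chaperones and of factors of their cycle. Of 16 HSP70 genes, 14 passed the filter. In any treatment 0 of them differed by 10 points, where 1.19% to 4.11% of coding symbols did, depending on treatment and direction. Of the 14, 11 had both stress values above both ligand values with 0 below, beside 37.7% and 32.1% of coding symbols. HSPA8, the constitutive cytosolic HSP70, stood at 99.9, 99.8, 99.7 and 99.5, and HSPH1, an exchange factor related to HSP70, at 98.1, 99.5, 93.7 and 93.3. The heat-inducible HSPA1A stood at 84.9, 91.7, 91.2 and 75.8, but its value is uncertain because it shares reads with the near-identical HSPA1B. HSPA6, another heat-inducible gene, did not pass, at 45.5, 32.7, 30.2 and 20.3. The GC content of these genes was not compared. In HSP70 genes a peak was listed in 13, 11, 7 and 9 after UV, heat shock, HGF and IFNg, beside 59.2%, 48.0%, 46.0% and 30.6% of coding symbols.

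Of 13 cycle factors, 12 matched a symbol (BAG6 did not) and all 12 passed the filter. GRPEL2, a mitochondrial exchange factor, stood at 77.0, 83.2, 64.6 and 80.1. It was the 1 that differed by 10 points, lower after HGF (1.28% of coding symbols), as was DNAJC1. Of the 12, 6 had both stress values above both ligand values (37.7% of coding symbols) and 2 below (32.1%). A peak was listed in 11, 9, 10 and 5, beside 59.2%, 48.0%, 46.0% and 30.6% of coding symbols. Among 4 J-domain proteins with other names, GAK, the widely expressed relative of auxilin, stood at 74.8, 63.7, 81.4 and 83.6. It was more than 10 points lower after heat shock (4.11% of coding symbols).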

How the data were processed

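RNA was polyA-selected, fragmented to short pieces and precipitated with an anti-m6A antibody, per the labels' protocols, which describe no step that marks strand, so overlapping antisense genes cannot be told apart. The deposited expression values are a fraction, the quantile rank of a gene model in its treatment, and the authors gave each peak a score, a position, an exon and a segment, per the file headers. The library behind the rank (IP, input or a mean of them), and the aligner, peak caller, genome build and the handling of reads that match several copies of a gene, are not given in the sources used here. With 1 library per group, precision is unknown and no test was possible.

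The members and gene lists were chosen with earlier results of these data known. Ranks were multiplied to a percentile. The filter was a percentile of 60 in any treatment, a difference was 10 points beyond all 3 other treatments, peaks within 100 nt formed a site, and score ranks were compared at 25 points. GC content came from the longest GENCODE 29 transcript, covered 95.7% of coding symbols and was corrected in 40 bins. Genes are described with values where they met one of these rules, were among the 5 highest, had a site in all 4 treatments or the most sites of a class, or were on a list of 26 members, and the others by range. Promoters were from RefSeq (GRCh38.p14), and no sequence was read at peaks. Alternatives were other thresholds, filters, score minimums and a GC correction. Tables were handled with pandas 2.3.3 and NumPy 2.4.6 in Python 3.11.15, correlations with SciPy 1.17.1 and plots with matplotlib 3.10.9. The counting was tested on simulated data. Some results are not reported here.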

Additional observations from a re-analysis of the deposited data

How the results depend on the processing

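With 1 library per group, leaving out a replicate was not possible. No paired analysis was possible because each group holds 1 library and no result comes from a test. Of 90 values recomputed under other settings, 63 stayed within the bounds set and 27 moved. At 5 points, the counts below the other treatments in UV, heat shock, HGF and IFNg became 2, 3, 3 and 7, and those above became 5, 1 and 1 in the last 3. At 20 points, all of these counts were 0. The GC correction gave 1 gene lower after UV, 0 higher and 0 lower after heat shock, 1 higher after HGF and 0 lower after IFNg, and a median stress-to-ligand difference of 0.0714. Percentiles as deposited gave 2 genes lower after heat shock, and the filter at 75 gave 0. Without a filter the median difference was 1.97. Peaks with a score of 3 or more left 8 genes after HGF, 6 after IFNg and 5 in all 4 treatments, and a score of 4 left 5 after HGF and 2 after IFNg. The class medians with the filter were 79.2 for class B and 80.6 for class C. The cause of the moves was not tested beyond what each setting removes by its construction. Depth is unknown.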
